A study of Homo sapiens with 6 samples.

Results

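The BCL2 family genes examined here are 10 regulators of the mitochondrial route of apoptosis, among 18852 genes named on the array. They were selected by gene symbol, and every probe whose platform annotation gives one of those symbols was taken. IGROV-1 is an established human ovarian carcinoma cell line. The cells were cultured for 24 h in medium mixed with an equal part of cell-free ascites, taken from mice bearing IGROV-1 cells intraperitoneally. In the saline group (3 arrays) the donor mice had received saline, and in the CpG group (3 arrays) CpG-ODN, the phosphorothioated oligodeoxynucleotide ODN1826, given into the peritoneum at 20 µg per mouse. ODN1826 is a ligand of mouse Toll-like receptor 9. The labels do not name the strain of the mice.

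Mice of both groups had carried tumour cells for 10 to 11 days before treatment and were killed 24 h after the last dose. The mice received the oligodeoxynucleotide either 1 time or on 3 consecutive days, and the labels do not say which schedule each ascites came from. The labels give 3 mice per group, but not whether the ascites was pooled or whether the arrays of a group came from separate cultures. The p-values therefore measure the spread between these arrays, which may be technical. All values are from 1 cell line, and they are RNA levels only. In such bulk samples, fewer cells that hold an RNA and less of it per cell cannot be told apart.

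BCL2 family proteins decide whether the outer membrane of the mitochondrion is opened to release cytochrome c, which starts the caspase cascade. BAX and BAK1 form the pores. BCL2, BCL2L1 (BCL-XL) and MCL1 hold them in check, and the BH3-only proteins, among them PMAIP1 (NOXA), BBC3 (PUMA), BCL2L11 (BIM), BIK and BID, bind the guardians or activate the pore formers. PMAIP1 binds MCL1 preferentially and promotes its degradation. Ovarian carcinoma cells often depend on BCL2L1 and MCL1, and cisplatin kills them largely by this route.

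PMAIP1 and, to a lesser extent, BID had lower values in CpG ascites on every array. Both probes of PMAIP1 and the tested probe of BID lay below all saline arrays on all 3 CpG arrays. Groups did not overlap in that direction at 9.82% of all tested probes. After adjustment over all probes, 0 of the 3 PMAIP1 and BID probes passed. BCL2, the brightest BCL2L1 probe, MCL1 and BIK had overlapping groups. BAX and BAK1 were low on a single CpG array, and the remaining CpG arrays lay within or above the saline range. A second BCL2L1 probe was far below saline on that same array and lower than all saline arrays on 1 further CpG array. BBC3 and BCL2L11 were not above background on any array.

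The promoters of PMAIP1 and BID are shown because these are the members whose groups did not overlap. They run from 250 bases before to 50 bases after the gene start in RefSeq, build GRCh38.p14, 5′ to 3′ on the gene's strand. Capitals mark the core of the cyclic AMP response element, ACGTCA, which proteins of the CREB and ATF family bind. PMAIP1 is at chr18:59899746-59900045 on the + strand, and BID at chr22:17774420-17774719 on the - strand, the first listed of 5 start sites.
PMAIP1: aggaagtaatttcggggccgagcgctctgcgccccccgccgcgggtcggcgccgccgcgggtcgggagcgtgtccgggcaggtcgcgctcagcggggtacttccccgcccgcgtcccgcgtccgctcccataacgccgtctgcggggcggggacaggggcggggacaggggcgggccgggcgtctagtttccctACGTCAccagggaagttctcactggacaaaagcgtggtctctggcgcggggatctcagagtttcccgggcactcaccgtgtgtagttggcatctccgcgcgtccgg
BID: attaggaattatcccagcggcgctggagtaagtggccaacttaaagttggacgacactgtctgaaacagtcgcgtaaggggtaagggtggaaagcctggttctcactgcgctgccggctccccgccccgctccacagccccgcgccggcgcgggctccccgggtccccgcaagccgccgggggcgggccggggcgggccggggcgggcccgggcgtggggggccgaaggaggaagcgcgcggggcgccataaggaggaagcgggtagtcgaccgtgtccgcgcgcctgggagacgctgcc

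The PMAIP1 window held 1 match, which starts at position -56 from the gene start, and the printed BID window held 0. No other searched motif overlapped it. Of the 8 member genes matched by symbol in the RefSeq promoter table (not BIK and MCL1), PMAIP1 alone had this match, searched on both strands. Of all 35116 promoters of that length, 7.98% held it. Other motifs searched on both strands were the E-box CACGTG, the STAT motif TTCNNNGAA and the interferon-stimulated response element (ISRE). Neither printed window held a match to these. The E-box was found at 3 of the 8 member genes, 4 times in the BAX window, 1 time in that of BBC3, and in the windows of BID start sites 2 and 5, which are not printed. A gene with several start sites has several windows, so this count per gene is not on the scale of the share of all promoters. Counted per promoter, the E-box was held by 7.26% of all promoters, the STAT motif by 7.66% and the ISRE by 3.57%. The ISRE had 2 overlapping matches in the BBC3 promoter, and the STAT motif had 0 matches among the 8 genes. A match is a string of letters in a window and was not tested as a binding site.

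The 10 genes had 22 probes, of which 13, from 8 genes, lay above background on at least 3 of the 6 arrays and were tested. The other 9 probes were above background on no array. Log2 intensities are after background correction and quantile normalization, and differences are CpG minus saline on that log2 scale. Levels of different probes are not comparable with each other. The spread of the arrays by probe is shown for the 13 tested probes.

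**Figure D1:**
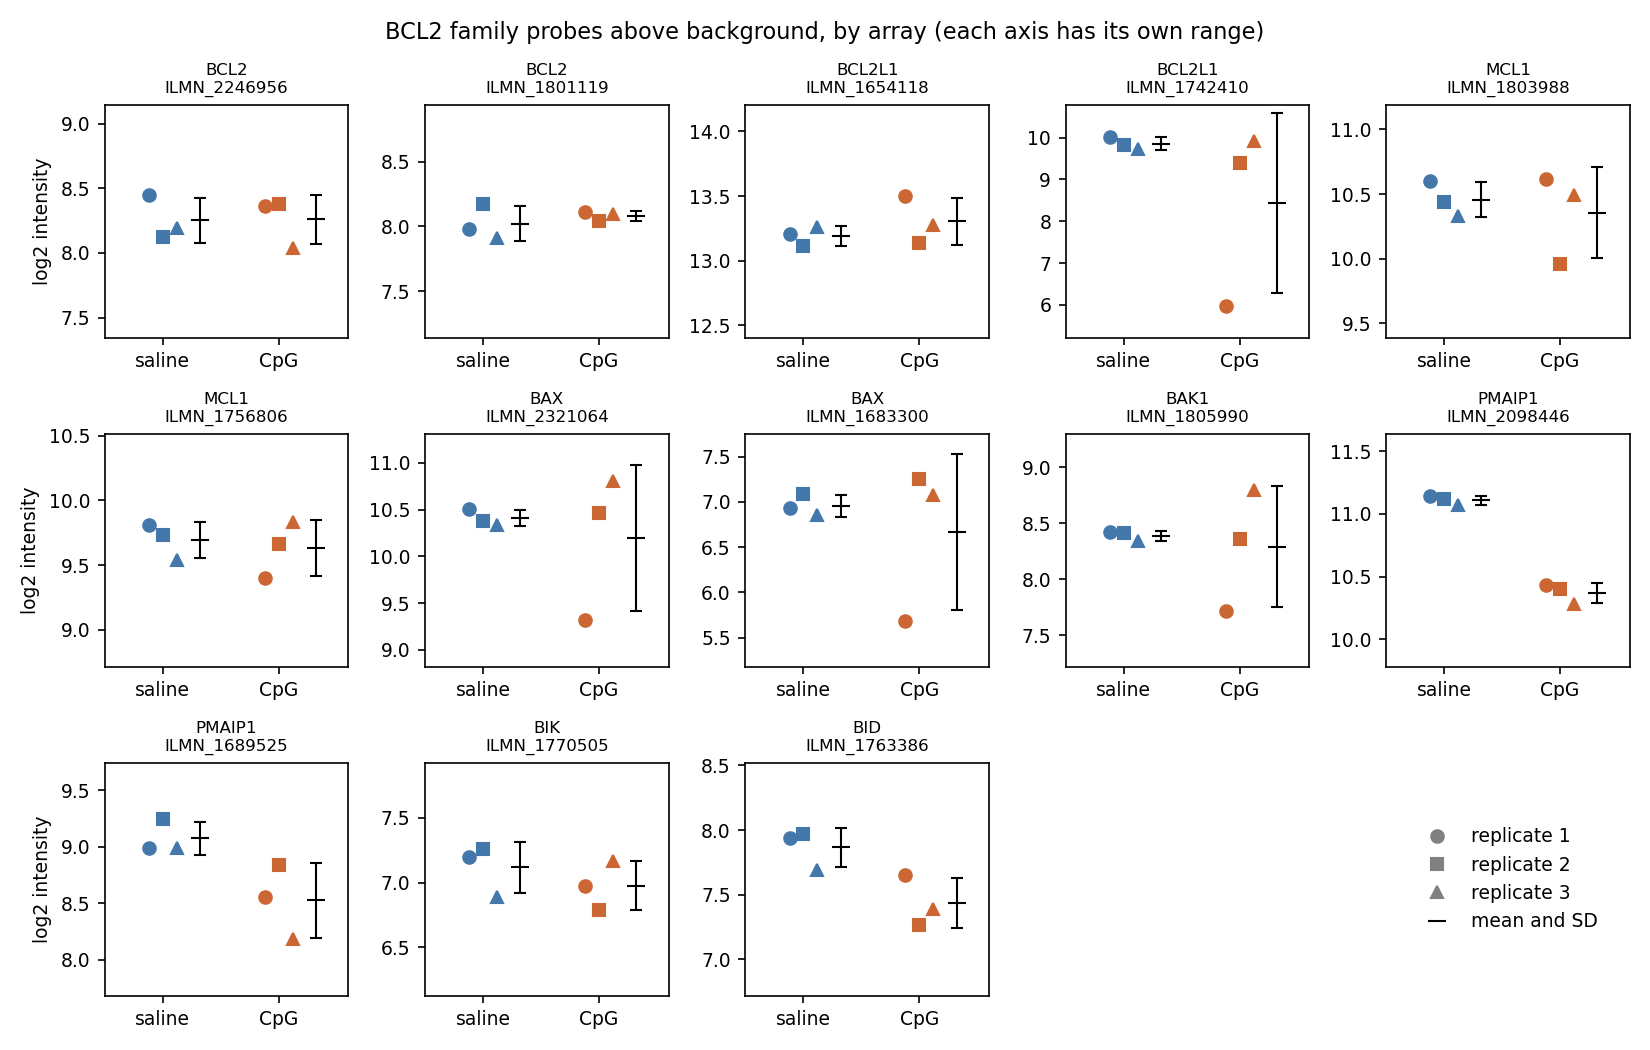
Log2 intensity (vertical axis, own range in each panel) of the 13 BCL2 family probes above background, for 3 saline and 3 CpG arrays. Symbols are replicates and bars are the mean and SD of 3 arrays. Both PMAIP1 probes and BID lie lower on every CpG array than on any saline array, while BAX and BAK1 have a single low CpG array, replicate 1, and BCL2L1 ILMN_1742410 has that array at 5.98 and replicate 2 at 9.40, both below the lowest saline value of 9.72.

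One array, CpG ascites replicate 1, stood apart. Across tested probes its Pearson correlation with them was 0.948 to 0.958, against 0.978 to 0.992 among the other 5. On it 189 probes (1.38% of those tested) were over 4-fold lower than the mean of the saline arrays, against at most 1 on any other array, and its median intensity was the lowest of the 6, at 111 against 116 to 126. Differences of the members and of the pathway genes below are therefore given with and without this array. Of the 8 markers of IGROV-1 cells, KRT19, EPCAM, PAX8 and FOLR1 were above background on all 6 arrays, KRT18 on 5, and MUC16, WT1 and KRT8 on none. Their summed linear level was 18600 to 20430 on saline arrays and 20470 to 23050 on CpG arrays. Of 6 leukocyte markers measured, CD68 alone was above background on all arrays, LYZ was on 1 saline array, and PTPRC, CD3E, CD14 and ITGAM were on none. Their summed level was 3060 to 3372 on saline and 2968 to 3553 on CpG arrays. None of the 6 stromal and 2 erythroid markers was above background on any array, with sums of 237 to 247 and 69.4 to 71.2 on saline arrays and 238 to 252 and 65.1 to 71.7 on CpG arrays.

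Over all 13713 tested probes, 0 (0%) had an adjusted p under 0.05 with limma, and the smallest was 0.116. At an unadjusted p under 0.05, 5.97% were lower and 6.86% were higher in CpG ascites. Among the 13 member probes, 0 passed after adjustment. At an unadjusted p under 0.05, 3 were lower, which is 23.1%, and 0 were higher. These are the 2 PMAIP1 probes, which read a single gene and are not independent, and the BID probe. The same 3 probes had groups that did not overlap, which is the case in the lower direction for 9.82% of all tested probes and in the higher direction for 10.9%, where the members had 0. In either direction the groups did not overlap at 20.7% of all tested probes. Without CpG ascites replicate 1, the members again had 3 lower and 0 higher at an unadjusted p under 0.05, beside 8.06% and 6.82% of all probes, and 0 after adjustment, beside 0.153%. The members were chosen with earlier results of these data known, so their shares beside those of all probes are not an independent comparison.

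The anti-apoptotic members are described first. BCL2, the founding member and the target of venetoclax, has 2 probes for the transcript NM_000633, which encodes the alpha isoform. On ILMN_2246956 the log2 intensity was 8.45, 8.12 and 8.19 on the saline arrays and 8.36, 8.38 and 8.04 on the CpG arrays, in replicate order. On ILMN_1801119 it was 7.98, 8.17 and 7.91 on saline and 8.11, 8.04 and 8.10 on CpG arrays. The groups overlapped at both probes.

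The BCL2 differences were 0.01 (95% interval -0.35 to 0.37) and 0.07 (-0.23 to 0.36), with adjusted p of 0.981 and 0.837 in limma. Changes larger than these bounds in either direction lie outside the intervals. Without CpG ascites replicate 1 the differences were -0.04 and 0.05. The 2 probes for NM_000657, the beta isoform, were above background on no array.

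BCL2L1 encodes BCL-XL, which binds BAX, BAK1 and BH3-only proteins, and both of its probes are annotated to NM_138578, the transcript of the long form. On ILMN_1654118 the log2 intensity was 13.21, 13.11 and 13.26 on saline arrays and 13.50, 13.14 and 13.28 on CpG arrays. The difference was 0.11 (-0.21 to 0.43), with an adjusted p of 0.737, and the groups overlapped. Leaving out CpG ascites replicate 1 gave 0.02. The second probe gave another picture on 1 array.

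On ILMN_1742410 the log2 intensity was 10.02, 9.82 and 9.72 in saline and 5.98, 9.40 and 9.93 in CpG ascites. CpG ascites replicate 2 also lay below all saline arrays, at -0.45 from their mean, and replicate 3 lay among them. The deposited intensity there was 1015, 1036 and 994.0 on the saline arrays and 138.8, 917.4 and 874.1 on the CpG arrays. CpG ascites replicate 1 was not above background (detection p 0.0211), while the other 5 arrays had a detection p of 0. This is one of the 189 probes that were more than 4-fold low on that array, at -3.87 on the log2 scale from the saline mean.

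The fitted difference at this probe was -1.42 (-3.54 to 0.71) with all arrays and -0.19 (-0.61 to 0.23) without that array. The adjusted p was 0.535 and 0.681. On the same array the first BCL2L1 probe had the highest value of the 6, so the 2 probes of the gene stood at opposite ends of the range there. The reason was not tested.

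MCL1, a short-lived guardian and the main partner of PMAIP1, has 2 probes annotated to the transcript NM_021960. On ILMN_1803988 the log2 intensity was 10.60, 10.44 and 10.33 on saline and 10.62, 9.96 and 10.49 on CpG arrays. On ILMN_1756806 it was 9.81, 9.73 and 9.54 on saline and 9.40, 9.66 and 9.83 on CpG arrays. A different CpG array was lowest at each probe, replicate 2 at the first and replicate 1 at the second, and the groups overlapped at both.

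The MCL1 differences were -0.10 (-0.54 to 0.35) and -0.07 (-0.43 to 0.30), with adjusted p of 0.841 and 0.873. Without CpG ascites replicate 1 they were -0.23 (-0.64 to 0.19) and 0.05 (-0.27 to 0.37). The interval at ILMN_1803988 includes a difference as large as the -0.43 of the BID probe described below, so these values do not show that MCL1 was unaltered.

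The pore formers come next. BAX, which moves from the cytosol into the mitochondrial membrane when activated, had a log2 intensity on ILMN_2321064 of 10.51, 10.38 and 10.34 in saline and 9.32, 10.46 and 10.81 in CpG ascites. On ILMN_1683300, annotated to the transcript NM_004324, it was 6.93, 7.09 and 6.85 in saline and 5.68, 7.25 and 7.07 in CpG ascites, where replicate 1 was not above background. At both probes CpG ascites replicate 1 was the lowest of the 6 arrays, by more than 1 on the log2 scale, and the other CpG arrays lay within or above the saline range.

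The BAX differences were -0.21 (-1.02 to 0.61) and -0.29 (-1.18 to 0.61), with adjusted p of 0.814 and 0.765. Without that array they turned positive, to 0.23 (-0.11 to 0.57) and 0.21 (-0.11 to 0.52), with adjusted p of 0.509 and 0.522. BAX therefore had no settled direction in these arrays. The remaining BAX probe, ILMN_2258383, was above background on no array.

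BAK1, the pore former that resides in the mitochondrial membrane and is held by MCL1 and BCL-XL, had a log2 intensity of 8.42, 8.41 and 8.34 in saline and 7.72, 8.36 and 8.80 in CpG ascites. As at BAX ILMN_2321064, CpG ascites replicate 1 was the lowest and replicate 3 the highest of the 6 arrays. The SD was 0.04 over the saline arrays and 0.55 over the CpG arrays. The difference was -0.10 (-0.69 to 0.50), or 0.19 (-0.17 to 0.55) without replicate 1, with adjusted p of 0.885 and 0.618.

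**Figure D2:**
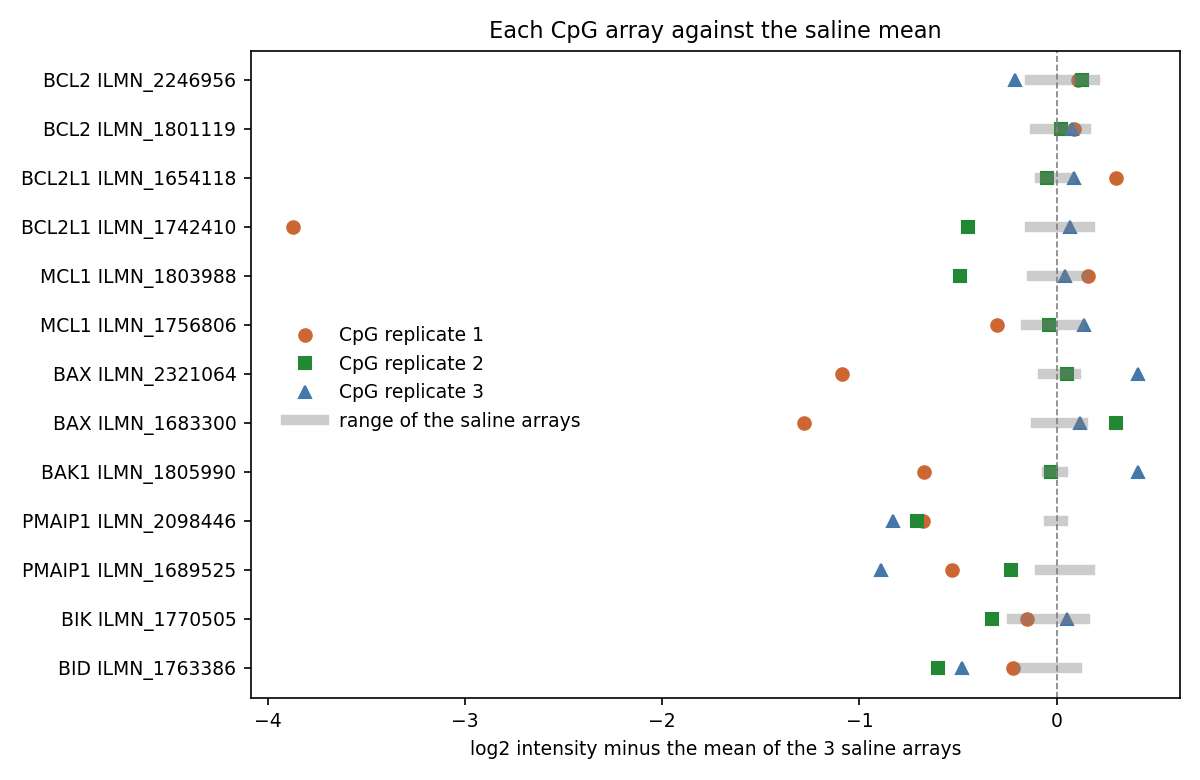
Log2 intensity of each CpG array minus the mean of the 3 saline arrays (horizontal axis) for the 13 tested probes, with the range of the saline arrays as a grey bar. CpG replicate 1 is far below the bar at BCL2L1 ILMN_1742410 (-3.87), both BAX probes (-1.09 and -1.28) and BAK1 (-0.67), whereas at PMAIP1 ILMN_2098446 the 3 CpG arrays lie together at -0.68, -0.71 and -0.83.

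Among the BH3-only members, PMAIP1 had the smallest p. It is a direct p53 target that is also raised through the integrated stress response, and its protein removes MCL1. On ILMN_2098446 the log2 intensity was 11.14, 11.12 and 11.07 on the saline arrays and 10.43, 10.40 and 10.28 on the CpG arrays. All CpG values lay lower than all saline values, and the gap between the groups (lowest saline 11.07, highest CpG 10.43) was wider than the range within either group. The deposited intensities before normalization, 2099, 2420 and 2374 for saline and 1430, 1750 and 1084 for CpG, did not overlap either.

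The group means at this probe were 11.11 ± 0.04 (SD, n = 3) and 10.37 ± 0.08. The difference was -0.74 ± 0.12 (SE), with an interval of -1.01 to -0.47, a CpG level at 0.598 times the saline level. The unadjusted p was 0.000286, which ranked 31 of the 13713 tested probes, and the adjusted p was 0.122 with limma. Without CpG ascites replicate 1 the difference was -0.77 ± 0.12 and the adjusted p 0.0588. With a mean-variance trend and robust moderation of the same values the adjusted p was 0.0431. Other settings gave larger values in limma, 0.425 under median scaling and 0.336 with the replicate number as a block. With 1 saline array left out the adjusted p was 0.43 to 0.579.

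The second PMAIP1 probe, ILMN_1689525, annotated to the same transcript NM_021127, had a log2 intensity of 8.99, 9.24 and 8.99 on saline and 8.55, 8.84 and 8.18 on CpG arrays. The groups again did not overlap, but the CpG arrays were more spread, with replicate 2 the closest to saline and replicate 3 the farthest. Before normalization this probe overlapped, since CpG ascites replicate 2, at 651.6, exceeded 2 of the saline arrays, at 548.4 and 636.2. That array had the highest mean intensity over all probes, 788 against 587 to 711 on the others.

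The difference at the second probe was -0.55 ± 0.19 (SE; interval -0.99 to -0.11), with an unadjusted p of 0.0204 and an adjusted p of 0.313. It was -0.56 ± 0.20 without CpG ascites replicate 1. An exact two-sided permutation test of each PMAIP1 probe gave p = 0.1, the smallest that 3 against 3 arrays allow. Groups that do not overlap always give this value, so it only restates the separation. In either direction 20.7% of all tested probes had such groups. Both probes lay below the saline mean on every CpG array.

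BID links death receptors to mitochondria: caspase-8 cuts it, and the fragment activates BAX and BAK1. Its tested probe, ILMN_1763386, had a log2 intensity of 7.94, 7.97 and 7.69 on saline and 7.65, 7.27 and 7.39 on CpG arrays. The groups did not overlap, but they nearly met, at 7.69 on saline replicate 3 and 7.65 on CpG replicate 1. The exact permutation p was again 0.1, as it is for any probe whose groups do not overlap.

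The BID difference was -0.43 ± 0.15 (SE; interval -0.79 to -0.08), with an unadjusted p of 0.0235 and an adjusted p of 0.327. Without CpG ascites replicate 1, the CpG array nearest to saline, it was -0.54 ± 0.14 with an adjusted p of 0.150. In other settings limma's unadjusted p exceeded 0.05. It was 0.102 under median scaling, and 0.0548 to 0.084 without saline replicate 1 or 2 or CpG replicate 2 or 3. The other BID probes were above background on no array. One of them, ILMN_2372413, was close to that limit, with detection p of 0.0105 to 0.0211, and its log2 intensity was 6.25, 6.52 and 6.22 in saline and 6.33, 6.24 and 6.34 in CpG ascites. At that probe, which is annotated to the transcript NM_197967 rather than NM_197966, the groups overlapped. The remaining BID probe, ILMN_2259495, is annotated to NM_197966 like the tested probe and had detection p of 0.294 to 0.979.

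BIK, a BH3-only protein of the endoplasmic reticulum, had a log2 intensity of 7.20, 7.26 and 6.89 on saline and 6.97, 6.79 and 7.17 on CpG arrays. The values overlapped. The difference was -0.14 (-0.51 to 0.23) with an adjusted p of 0.719, and -0.14 (-0.53 to 0.26) without CpG ascites replicate 1. BIK was above background on all arrays, with deposited intensities of 195.4 to 255.7.

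The potent BH3-only activators BBC3, a p53 target, and BCL2L11, which growth factor withdrawal and FOXO factors induce, were not detected. The BBC3 probe had detection p of 0.0487 to 0.630, and the 3 BCL2L11 probes of 0.0250 to 0.652. The closest to the limit were ILMN_1766541 and ILMN_2359627 of BCL2L11, with detection p of 0.0250 to 0.0738 and 0.0316 to 0.0777. No difference could be measured for these genes at this signal, which does not show that the RNAs were absent.

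**Figure D3:**
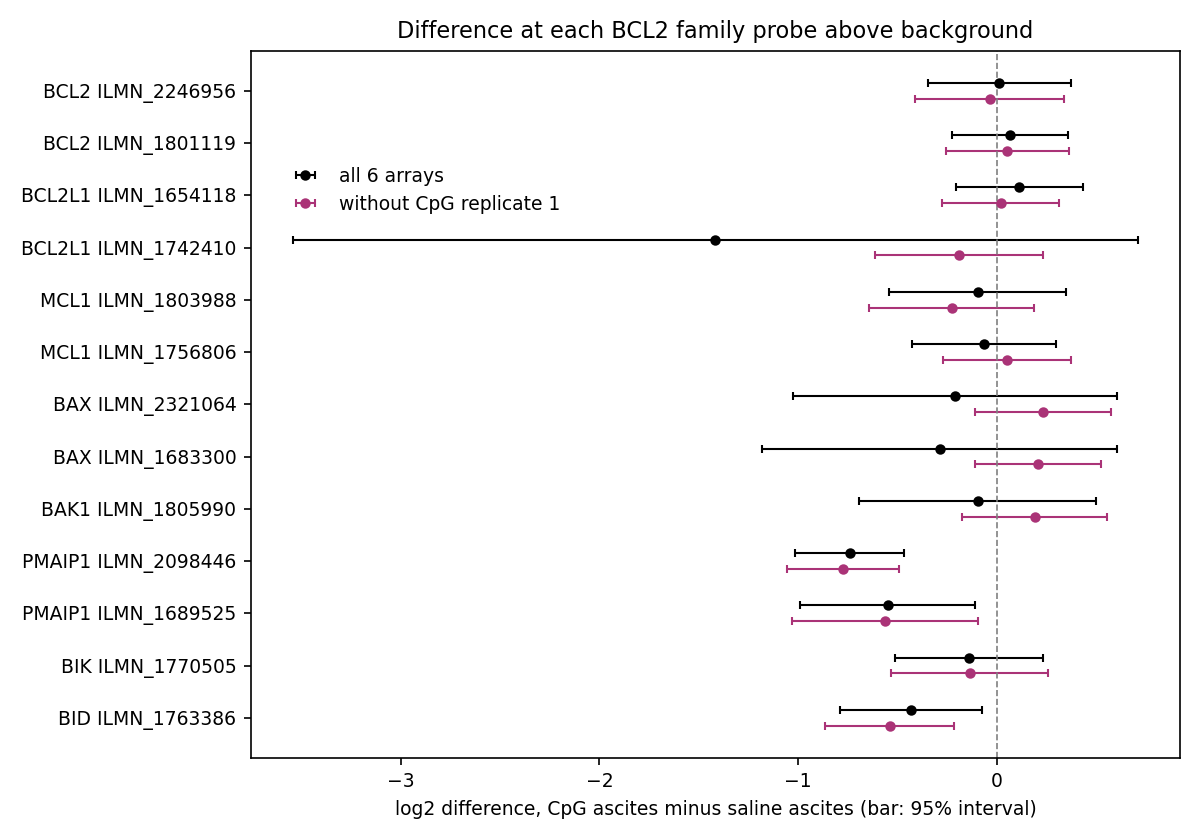
Log2 difference, CpG minus saline ascites, of the 13 tested probes (points) with 95% intervals (bars), over all 6 arrays in black and without CpG replicate 1 in purple. The intervals of both PMAIP1 probes and of BID lie below 0 in both fits, while those of BCL2, BCL2L1, MCL1, BAX, BAK1 and BIK include 0.

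The genes whose values over the 6 arrays were most like PMAIP1 ILMN_2098446 are given as a description. Among 11831 tested probes of other named genes, the highest Pearson correlations were those of SNRPE (0.996), a core spliceosome protein, LSM5 (0.995), an RNA-binding protein of the same fold, the Argonaute gene AGO3 (0.994), S100A10 (0.992), the annexin A2 partner, and the mitochondrial ribosome recycling factor gene MRRF (0.989). Their differences ran from -1.13 for SNRPE to -0.26 for AGO3. In all, 296 probes reached a correlation of 0.9. The points are only 6 arrays in 2 groups, so any probe with separated groups scores high.

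The rest of the pathway was described through 4 gene lists, with the brightest tested probe standing for each gene. Over all tested probes, 941 probes lay higher and 818 lower with an unadjusted p below 0.05, and the median log2 difference was -0.000373. The lists are given by their counts and medians beside these. In the 4 lists 0 genes had an adjusted p under 0.05.

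Of 13 other BCL2 family genes, 7 were tested. At an unadjusted p under 0.05, 0 of them lay higher and 0 lower, and the median difference was -0.09, or 0.02 without CpG ascites replicate 1. BCL2L13, a mitophagy receptor, had 11.25 ± 0.11 (SD) in saline and 11.56 ± 0.15 in CpG ascites, without overlap, a difference of 0.31 (adjusted p 0.399), or 0.22 without that array. BNIP3, a mitophagy receptor induced by hypoxia, had a difference of -0.21, or -0.15 without that array. Its relative BNIP3L had 0.18 on its brightest probe, or 0.02 without that array. A second BNIP3L probe, ILMN_2045419, was above background on only 2 saline and 2 CpG arrays. On CpG ascites replicate 3 it was at 5.28, under the lowest detected value of 6.51 there. Its difference was -0.47, and -0.91 with an unadjusted p of 0.0215 without CpG ascites replicate 1. BOK, a BAX-like pore former, had -0.12, or -0.05 without that array, and BCL2L2, a further guardian, -0.02 or -0.07. BMF, BCL2L10, BCL2L14 and BCL2L15 were above background on no array, BCL2A1 on 1 and HRK on 2, all of them saline arrays. Mean log2 intensities near that limit were 6.47 in saline and 6.32 in CpG ascites for BCL2A1, and 6.48 and 6.45 for HRK. These detection counts therefore do not show a loss in CpG ascites.

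Downstream of the mitochondrial pore, 10 of 15 genes were tested, 0 of them at an unadjusted p under 0.05 in either direction. The median difference was 0.06, also without CpG ascites replicate 1. ENDOG, a mitochondrial nuclease, had 0.24 ± 0.14 (SE), or 0.19 without that array, and the channel gene VDAC3 0.20 ± 0.14, or 0.19. The initiator caspase gene CASP9 had 0.31 ± 0.18 with all arrays and 0.12 ± 0.13 without CpG ascites replicate 1. The protease gene HTRA2 had -0.26 ± 0.19 on its brightest probe, or -0.17 without that array, and 0.16 on a second probe, or -0.01. CYCS, which encodes cytochrome c, had -0.02, or -0.05 without that array. The apoptosome scaffold gene APAF1 had 0.22, which turned to -0.01 without CpG ascites replicate 1. AIFM1, like BAX, was low on CpG ascites replicate 1, at 6.92 against 8.44 to 9.08 on the other arrays, and its difference of -0.40 turned to 0.32 without it. The inhibitor of caspases XIAP was above background on 2 saline arrays and on no CpG array, and was not tested.

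Of 10 transcription factors that act on member genes, 7 were tested, of which 1 gene lay higher and 0 lower with an unadjusted p below 0.05. The median difference was 0.02, and -0.04 without CpG ascites replicate 1. STAT3, an activator of BCL2L1 and MCL1, had 11.66 ± 0.14 (SD) in saline and 12.22 ± 0.40 in CpG ascites, a difference of 0.56 ± 0.21 (SE; adjusted p 0.346), or 0.37 ± 0.16 without that array. The groups did not overlap but nearly met, at 11.81 on saline replicate 2 and 11.82 on CpG replicate 2. The other STAT3 probes, ILMN_2410986 and ILMN_1663618, had 0.48 ± 0.13 and 0.47 ± 0.14, also without overlap (adjusted p 0.264 and 0.271). Without CpG ascites replicate 1 they had 0.48 and 0.39. HIF1A, the hypoxia factor, had -0.38 ± 0.20 on its brightest probe but 0.40 ± 0.15 and 0.39 ± 0.20 on the other 2, so its probes had no single direction. Without that array these were -0.48, 0.26 and 0.17. The brightest HIF1A probe is annotated to the transcript NM_181054 and the other 2 to NM_001530. MYC had 0.27 ± 0.15, or 0.16 without that array, and DDIT3 (CHOP), an effector of the integrated stress response, 0.19 ± 0.13, or 0.10. ATF4, the central factor of that response, had -0.07 on its brightest probe, or -0.14 without that array. ATF3 had 0.02, which turned to -0.20. Without CpG ascites replicate 1 the counts were 0 higher and 1 lower: STAT3 had an unadjusted p of 0.0547 and HIF1A one of 0.0456. These counts take the brightest probe of each gene. In that fit the other STAT3 probes had an unadjusted p of 0.00965 and 0.0199, and the other HIF1A probes 0.0674 and 0.244.

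Of 10 genes for the ubiquitin turnover of MCL1 and of BH3-only proteins, 9 were tested, 0 of them at an unadjusted p under 0.05. The median difference was 0.11, or -0.02 without CpG ascites replicate 1. USP13, a deubiquitinase of MCL1, had 0.36 ± 0.16 (SE), or 0.23 ± 0.14 without that array. HUWE1, the MCL1 ubiquitin ligase, had 0.33 ± 0.29, which turned to -0.02 ± 0.15. FBXO7, an F-box subunit of ubiquitin ligases, had 0.39 ± 0.22 on its brightest probe but -0.24 and -0.29 on the other 2. Without that array the 3 probes had 0.16, 0.02 and 0.14, so the opposite signs are seen only with CpG ascites replicate 1 in the fit. UBE2F, a NEDD8-conjugating enzyme reported to act in PMAIP1 turnover, had 12.34, 12.35 and 12.30 in saline and 12.02, 12.16 and 12.15 in CpG ascites, a difference of -0.22 ± 0.12 without overlap (adjusted p 0.468), or -0.17 ± 0.12 without that array.

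**Figure D4:**
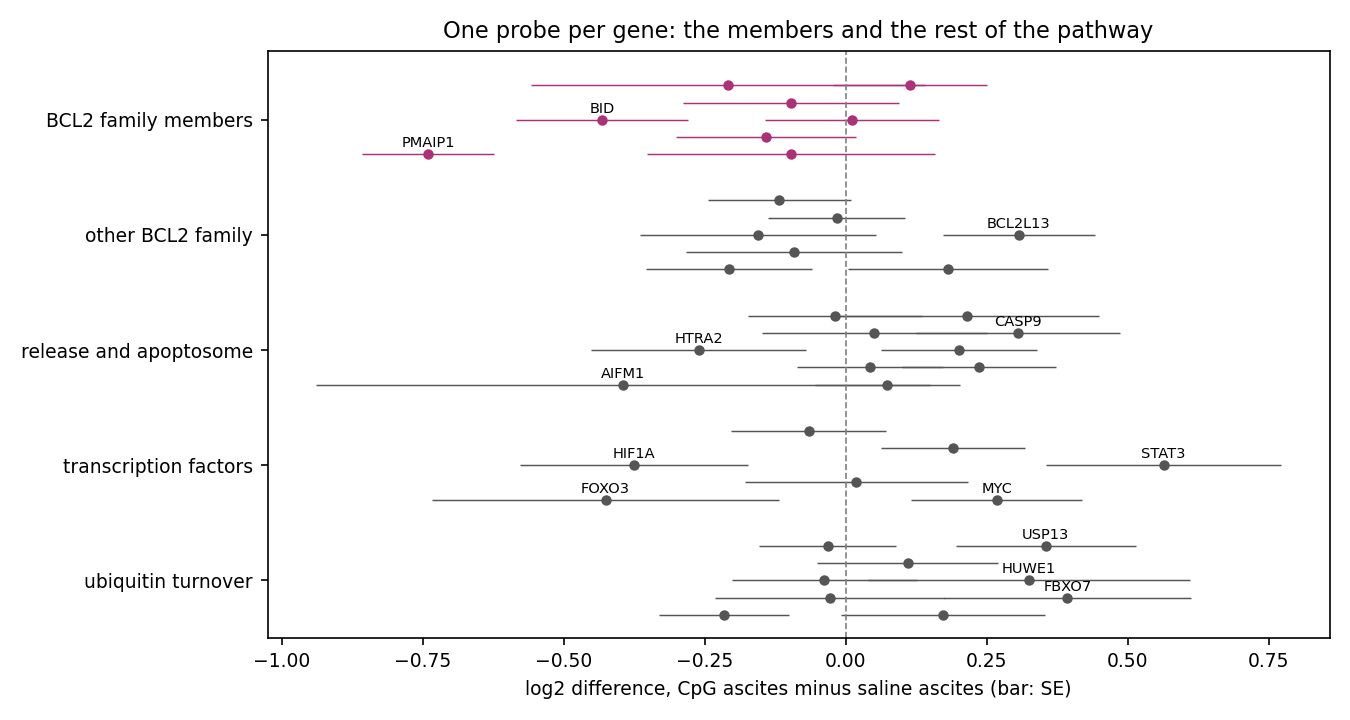
Log2 difference, CpG minus saline ascites (horizontal axis, bars are SE), with 1 probe per gene, for the 8 tested members and for 4 lists of other genes of the pathway; genes beyond 0.25 in either direction are named. Over all 6 arrays, PMAIP1 at -0.74 is the lowest of all points drawn, and STAT3 at 0.56 the highest; without CpG replicate 1 these were -0.77 and 0.37.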

How the data were processed

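RNA of cells cultured in saline or CpG ascites was profiled on 1-colour Illumina arrays, 3 per group. The arrays were summarised with BeadStudio per the submitters' processing notes. The deposited intensity of 48801 probes was not normalized, per the file headers, which also give a detection p-value per probe and array. A second deposited table holds the authors' processed intensity on a linear scale, made in a way not given in the sources used here, and served as an alternative. Samples were grouped by their titles. Intensities were corrected and normalized with neqc (limma 3.58.1, R 4.3.3; offset 16, log2). A probe was tested if 3 or more arrays gave it a detection p-value under 0.01 (13713 probes). The test was limma's moderated test (lmFit, eBayes), two-sided, with Benjamini-Hochberg adjustment over all tested probes and a threshold of 0.05. Symbols came from the platform annotation: 28097 probes had 1, 13 several and 20691 none, and 28058 were found by gene number in the RefSeq gene table. The genes named from each list are the 4 with the smallest p; others were chosen after their values were seen. The members and lists were chosen with earlier results of these data known. The fit was tested on simulated data. Alternatives were other background corrections, scaling, filters, variance models, weights, the replicate number as a block and each array left out. The number of arrays limits the precision.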

Additional observations from a re-analysis of the deposited data

How the results depend on the processing

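PMAIP1 and BID kept a negative difference under all 15 alternatives run for each probe. Many of these could not have given another sign. Where groups do not overlap, leaving out 1 array or weighting the arrays cannot turn it. The filters, the variance trend and the replicate block leave the difference itself unaltered. PMAIP1 ILMN_2098446 ran from -0.77 to -0.65, with adjusted p from 0.0431 (mean-variance trend) to 0.579 (without saline replicate 2); ILMN_1689525 ran from -0.71 to -0.38 and BID from -0.54 to -0.29. Of the values of the 29 named probes under alternatives, 418 kept their sign and side of the threshold, 14 turned sign and 1 passed it. MCL1 ILMN_1756806 was 0.028 under median scaling, which moved the median of all probes to 0.0803. With array weights, BAX was 0.013 and 0.021 and BAK1 0.021. With 1 array left out, BCL2 ILMN_2246956 ran from -0.056 to 0.12, MCL1 from -0.227 to 0.1 and -0.167 to 0.051, BAX from -0.517 to 0.231 and -0.581 to 0.207, BAK1 from -0.353 to 0.19 and HUWE1 from -0.019 to 0.584.

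The 3 member probes lower at an unadjusted p under 0.05 became 1 under median scaling and 1 to 3 with 1 array left out (1 without saline replicate 2), and 1 was higher with no filter, a BAX probe at background. With the mean-variance trend 1 member probe passed after adjustment. Probes past the adjusted threshold numbered 1 with no background correction, 1 with the authors' values, 19 with the trend, and 0 to 21 with 1 array left out (21 without CpG replicate 1). At an unadjusted p, 1759 became 3978 with no filter and 962 to 2318 with 1 array left out.

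Other BCL2 family genes at an unadjusted p under 0.05 went from 0 to 1 under normexp with an offset of 50, no background correction, the authors' values, no filter, detection on all 6 arrays and the trend. Genes downstream of the pore numbered 2 with no filter. Transcription factors went from 1 to 0 with array weights and, counting every tested probe of the list, to 4 probes, 3 of STAT3 and 1 of HIF1A. Turnover genes numbered 1 with no background correction, the authors' values, no filter and detection on all 6 arrays. With 1 array left out these counts ran from 0 to 1, 0 to 2, 0 to 2 and 0 to 2.

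Deviations of same-numbered arrays from their group means correlated at -0.102, 0.014 and -0.021, and those of differently numbered arrays at -0.076 to 0.091. With 3 arrays per group, whose deviations depend on each other, this cannot settle whether the replicate numbers pair the arrays. With the replicate number as a block, 1472 probes had an unadjusted p under 0.05, 0 passed after adjustment and PMAIP1 ILMN_2098446 had an adjusted p of 0.336. Probes near background have compressed differences.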
